A study of Mus musculus with 6 samples.

Results

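CD4 T cells of NLRP3KO mice that had been in T helper type 2 (Th2) culture for 3 days were set against naive CD4 T cells of NLRP3KO mice. Each group was 1 library, and together they were 2 of the 6 libraries of the series. Both groups came from C57/Bl6j mice of 7 weeks and lacked NLRP3, the sensor protein of an inflammasome, so the comparison describes the culture within the knockout and not the effect of the knockout. For the Th2 group, naive cells from spleen and lymph nodes were kept in RPMI medium with 10% FBS and 1% antibiotics, with CD3 and CD28 antibodies bound to the plate, 10 ng/ml of IL-4 and blockade of interferon gamma by an antibody. The naive group was not cultured, as far as the labels say. The labels do not give the number of mice behind a library. RNA of the Th2 library was depleted of ribosomal RNA, whereas RNA of the naive library was purified as mRNA, so culture and RNA selection cannot be told apart. In the libraries of bulk cells, fewer cells of a type and less RNA of a gene per cell cannot be told apart either.

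A naive CD4 T cell that meets its antigen with costimulation leaves quiescence, takes up more glucose and amino acids and begins to divide. IL-4 then signals through its receptor and STAT6 to GATA3, the transcription factor that opens the Th2 cytokine genes Il4, Il5 and Il13. Interferon gamma and the factor T-bet (Tbx21) drive the opposing Th1 fate, which is why interferon gamma is blocked in such cultures.

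Each table held 23700 gene entries with an FPKM, the number of fragments normalised to transcript length and to the fragments of the library, and a lower and upper confidence bound. Of the 23415 entries of status OK, 803 entries of RNAs without a poly(A) tail, such as replication-dependent histones and small RNAs, and 7 entries of up to 300 bases were left out. Within the 22605 remaining entries, 6276 were above 0 at day 3 and 12473 were above 0 in naive cells. Their FPKM summed to 22380 at day 3 and 220865 in naive cells, while Rn45s, the ribosomal RNA precursor, had 63242 FPKM at day 3 and 7819 FPKM in naive cells. Each library was therefore scaled so that these entries summed to 1000000, and a difference is the log2 of the scaled value plus 1 at day 3 minus that in naive cells. FPKM are given as deposited, and differences after scaling. The bounds pointed to about 19448 fragments on genes at day 3 and 1088480 in naive cells, so values at day 3 rest on few fragments: 3 fragments on a gene of median length were worth 3.10 FPKM at day 3, which after scaling equals 30.6 FPKM in naive cells.

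Of the 6645 entries with an FPKM of at least 5 in 1 or both libraries, 992 were at least 2-fold higher at day 3 (14.9%) and 2847 were at least 2-fold lower (42.8%). An entry that met this minimum only at day 3 could only come out higher after scaling. With 1 library a group there is no test and no replicate check, and "higher" and "lower" below describe these libraries. The bounds, scaled like the values, did not overlap for 241 of the entries that were at least 2-fold higher (3.63%) and for 2242 of those lower (33.7%). Of the 2242, 1989 were listed at 0 at day 3, often with both bounds at 0, which can be a failed estimate. Taking 3 fragments as the most a zero allows, and the exact Poisson upper limit (95%) of the estimated fragments for the other values at day 3, 73 entries stayed at least 2-fold lower with limits apart (1.1%). The 241 and the 73 are the genes called here, and limits of this kind cover counting error only. The calls lie on both sides of the diagonal in the plot of the libraries against each other.

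**Figure D1:**
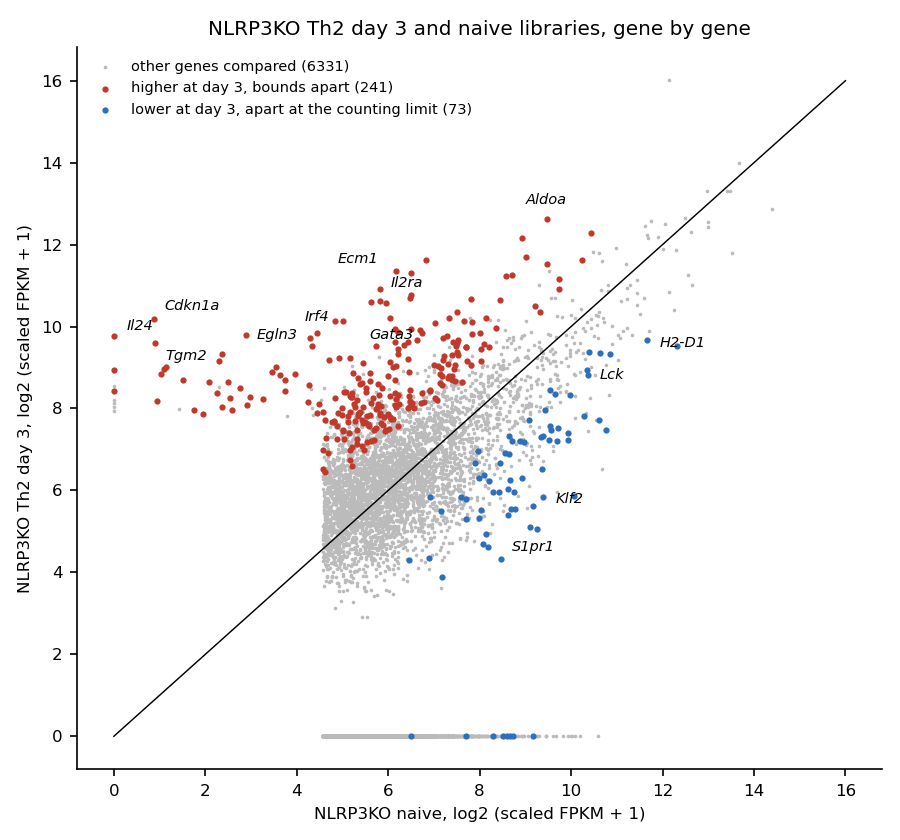
Level of each of the 6645 entries in the NLRP3KO Th2 day 3 library (y axis) against the NLRP3KO naive library (x axis), both as log2 of scaled FPKM plus 1. Each point is 1 entry, red for the 241 called higher, blue for the 73 called lower and grey for the others, the line marks equal levels, and the row of points at 0 on the y axis holds the entries listed at 0 at day 3.

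The scaling sets where 0 lies. Over the 4511 entries above 0 in both libraries the median difference was 0.15, and over all 6645 it was -0.56 with zeros as listed. As deposited, without scaling, the median over entries above 0 in both moves by -2.64, and higher calls are 0.82% of all 2-fold calls against 25.8% with scaling. The share is 16.8% with the median ratio over genes of at least 1 FPKM in all 6 libraries, 10.1% with the median ratio over genes of at least 5 FPKM in both libraries, and 57.6% over entries above 0 in both libraries. With zeros at day 3 set at 3 fragments, a limit and not a value, the share is 78.3%. Even as deposited, 38 genes were at least 2-fold higher at day 3 with bounds apart. They included Irf4, Nfil3, Ecm1, Il24, Il2ra, Tnfrsf8, Tnfrsf9, Lif, Cdkn1a, Phlda3, Tgm2, Bnip3, Egln3, Ndrg1, Ero1l, Slc2a3, Slc16a3, Pgam1 and Scd2. Every direction given below for a group of genes is relative to the scaled total, and the number of members whose FPKM was higher at day 3 as deposited is given beside most groups that stood higher. Counts of members are to be read beside the shares over all entries, 14.9% higher and 42.8% lower.

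The targeted gene gives no check of the labels. Nlrp3 was listed at 0 in both NLRP3KO libraries, and it had 0 FPKM at day 3 and 0.0569 FPKM in naive cells in the matching WT libraries. T cell identity was present in both libraries. Cd4, the coreceptor of helper T cells, had 12.8 FPKM at day 3 and 177 FPKM in naive cells, and Cd3e, a chain of the T cell receptor complex, had 13.04 FPKM and 462 FPKM in the same order of libraries, its naive value lying above its own upper bound of 440 FPKM.

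Most genes of the Th2 list that could be compared were higher at day 3 after scaling, while Il4, Il5 and Il13 were not detected there. Of 25 genes on the Th2 list, 13 could be compared, 12 were at least 2-fold higher, 1 was at least 2-fold lower and 10 were called higher, with a median difference of 3.63 against -0.56 over all entries. As deposited, 7 of the 13 had a higher FPKM at day 3. At least Irf4, Nfil3, Il24, Il9 and Il10 met the FPKM minimum only at day 3, so they could only come out higher. Among the transcription factors, Irf4 (chr13:30841127-30858796), which is induced by receptor signals and needed for Th2 and other effector fates, had 20.4 FPKM at day 3 (bounds 14.4 to 26.1) and 4.57 FPKM in naive cells (3.43 to 5.69), a difference of 5.40. Gata3 (chr2:9778705-9800227) had 14.4 FPKM at day 3 and 16.2 FPKM in naive cells, which after scaling is a difference of 3.11 (2.12 to 3.84 from the bounds). Its direction thus rests on the scaling, and Batf, an AP-1 factor with 16.6 FPKM at day 3 and 17.8 FPKM in naive cells, stood in the same position. Nfil3, a leucine zipper factor, had 6.83 FPKM at day 3 and 1.06 FPKM in naive cells. Stat6, the IL-4 signal transducer, was the listed member that was lower, with 1.72 FPKM at day 3 and 44.4 FPKM in naive cells, but its bounds overlapped.

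Of the signature cytokines, Il4 and Il13 were listed at 0 in both libraries, and Il5 was listed at 0 at day 3 and had 0.237 FPKM in naive cells. The matching WT day 3 library had 3.77 FPKM of Il4, with a lower bound of 0, so no difference between genotypes is read from it. Il24, related to IL-10, was the cytokine of the Th2 list that was called higher, with 19.5 FPKM at day 3 (7.54 to 30.2) and a listed 0 in naive cells. Il9 had 10.8 FPKM and Il10 had 5.44 FPKM at day 3, each listed at 0 in naive cells, with lower bounds of 0, so neither was called. Ecm1, a secreted matrix protein, had the highest FPKM among the compared Th2 list, 58.8 FPKM at day 3 (42.0 to 75.6) and 15.7 FPKM in naive cells (12.4 to 19.1), a difference of 5.18. Of the receptor and its feedback inhibitors, Il4ra had 11.9 FPKM at day 3 and 38.6 FPKM in naive cells, and Cish, Socs1 and Socs3 differed by 3.63, 3.22 and 1.99 on the log2 scale.

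Factors of other helper fates gave few values. Tbx21 (Th1) and Bcl6 (follicular helper) were listed at 0 at day 3 and had 1.49 and 3.62 FPKM in naive cells. Foxp3, the factor of regulatory T cells, was listed at 0 at day 3 and had 25.0 FPKM in naive cells. At 3 fragments Foxp3 would reach 1.99 FPKM at day 3, a difference of -0.35, so a 2-fold lower level was not detectable at this depth. Of 7 Th1 genes compared, 1 was higher and 5 were lower by at least 2-fold, 4 of them listed at 0 at day 3, and 1 was called: Il12rb1, a chain of the IL-12 receptor, had 9.26 FPKM at day 3 and 2.75 FPKM in naive cells. Il12rb1 met the FPKM minimum only at day 3, so it could only come out higher.

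Genes of T cell activation differed among themselves. Of 21 activation genes compared, 12 were at least 2-fold higher, 5 were at least 2-fold lower and 6 were called higher, with a median of 1.22. As deposited, 2 of the 21 had a higher FPKM at day 3. Il2ra, the alpha chain of the IL-2 receptor, had 43.2 FPKM at day 3 (34.2 to 52.3) and 12.3 FPKM in naive cells (10.3 to 14.3), a difference of 5.09. Tnfrsf9 (4-1BB), a costimulatory receptor, had 25.0 FPKM at day 3 and 6.87 FPKM in naive cells, a difference of 5.12. Il2rb, Tfrc (the transferrin receptor), Tnfrsf18 (GITR) and Ctla4 were also called, with differences of 2.89, 2.89, 2.85 and 2.43. Cd69 and Cd44, which mark early and antigen-experienced activation, differed by -0.05 and 0.01, and Nr4a1, an immediate early gene, was listed at 0 at day 3 with 21.9 FPKM in naive cells. At 3 fragments Nr4a1 would stand at a difference of 0.73, so its direction is not known. Il2ra, Ctla4 and Tnfrsf18 are also on the regulatory T cell list, of which 10 genes were compared, 6 were higher and 2, Foxp3 and Ikzf2, were listed at 0 at day 3. As deposited, 1 of those 10 had a higher FPKM at day 3.

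**Figure D2:**
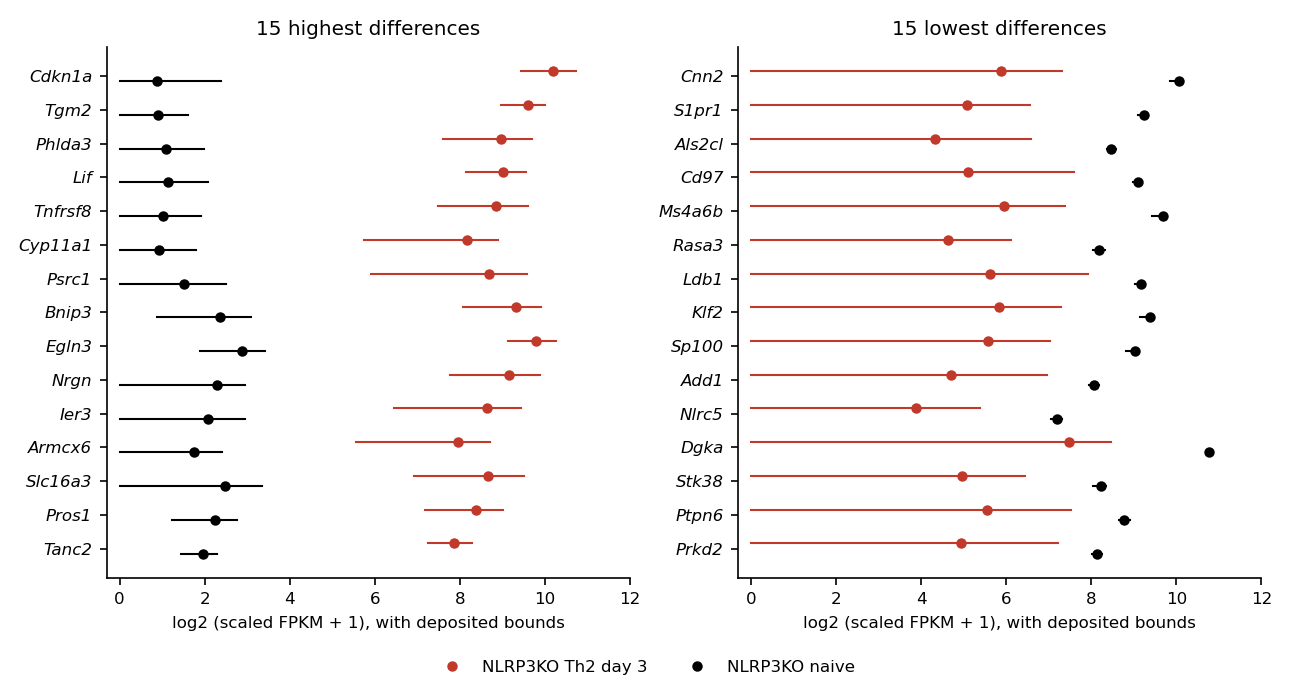
Levels of the 15 genes with the highest and the 15 with the lowest differences among genes above 0 in both libraries with bounds apart, as log2 of scaled FPKM plus 1 (x axis), with lines for the deposited confidence bounds. In each row NLRP3KO Th2 day 3 (red) is drawn over NLRP3KO naive (black), and level is read on the x axis only. Day 3 lies to the right of naive for the highest genes and to the left for the lowest, whose red lines reach down to 0.

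All the glycolytic genes that could be compared stood higher after scaling. Of 18 listed genes 16 could be compared, all 16 were at least 2-fold higher and 15 were called. The median was 3.00, with a range of 1.35 (Pfkm) to 6.17 (Slc16a3). As deposited, 6 of the 16 had a higher FPKM at day 3. At least Slc16a3 and Aldoc met the FPKM minimum only at day 3, so they could only come out higher. Aldoa, which splits fructose bisphosphate, had 142 FPKM at day 3 (111 to 174) and 156 FPKM in naive cells (142 to 170), a difference of 3.17. Pkm2, pyruvate kinase, had 103 FPKM and 107 FPKM, and Ldha, lactate dehydrogenase, had 74.0 FPKM and 114 FPKM, day 3 before naive in each case. Pgam1, phosphoglycerate mutase, had 34.9 FPKM at day 3 and 10.6 FPKM in naive cells, and Tpi1, triosephosphate isomerase, had 39.0 FPKM at day 3 and 19.6 FPKM in naive cells. The transporters at both ends of the pathway were among the largest differences. Slc2a3, a glucose transporter, had 35.3 FPKM at day 3 (26.6 to 44.1) and 12.2 FPKM in naive cells (10.1 to 14.4), and Slc16a3, which exports lactate, had 9.01 FPKM at day 3 and 1.02 FPKM in naive cells.

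Most targets of the hypoxia-inducible factors (HIF) stood higher as well. HIF-1 is stabilised when oxygen is low and also by signals through the T cell receptor. Of 17 listed genes 10 were compared, 7 were at least 2-fold higher, all 7 were called, 1 was at least 2-fold lower, and the median was 3.61. As deposited, 6 of the 10 had a higher FPKM at day 3. Of these, at least Egln3 and Bnip3 met the FPKM minimum only at day 3, so they could only come out higher. Egln3, a prolyl hydroxylase that marks HIF for degradation, had 19.9 FPKM at day 3 (12.6 to 27.5) and 1.42 FPKM in naive cells (0.600 to 2.16), a difference of 6.91. Bnip3, a mitochondrial protein that promotes mitophagy, had 14.4 FPKM at day 3 and 0.918 FPKM in naive cells, a difference of 6.96. Ero1l, an oxidase of the endoplasmic reticulum, had 25.1 FPKM at day 3 and 6.09 FPKM in naive cells, and Hif1a itself had 16.4 FPKM at day 3 and 11.5 FPKM in naive cells. Pdk1, a kinase that inhibits pyruvate dehydrogenase, was the member that was lower, with 1.69 FPKM at day 3 and 42.9 FPKM in naive cells. Its value at day 3 rested on about 2.56 fragments, so that its counting limit left a difference of up to 0.55.

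Promoters of both lists were read from RefSeq (GRCm38.p6, 250 bases before to 50 after each start) for the core letters that HIF binds, ACGTG and GCGTG, on either strand. At least 1 match was found in 22 of 28 promoters of the 17 glycolytic genes that matched by symbol (78.6%), in 17 of 22 promoters of the 16 matched HIF targets (77.3%) and in 14380 of all 32851 promoters (43.8%). A match describes letters only. The promoters of 4 called genes are shown with the matches in capitals, a match on the opposite strand reading CACGT or CACGC and CACGTG holding a match on each strand. Bnip3 (chr7:138909457-138909756, minus strand) held 5 matches, Egln3 (chr12:54203825-54204124, minus strand) held 1, Pgam1 (chr19:41911621-41911920, plus strand) held 3 and Pgk1 (chrX:106186850-106187149, plus strand), phosphoglycerate kinase with 36.8 FPKM at day 3 and 19.4 FPKM in naive cells, held 2.
Bnip3: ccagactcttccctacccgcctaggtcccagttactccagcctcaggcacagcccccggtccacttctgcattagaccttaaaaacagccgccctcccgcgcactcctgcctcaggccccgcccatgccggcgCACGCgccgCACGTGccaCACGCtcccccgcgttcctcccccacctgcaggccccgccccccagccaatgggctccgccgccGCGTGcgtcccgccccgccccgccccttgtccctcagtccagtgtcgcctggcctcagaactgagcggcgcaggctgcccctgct
Egln3: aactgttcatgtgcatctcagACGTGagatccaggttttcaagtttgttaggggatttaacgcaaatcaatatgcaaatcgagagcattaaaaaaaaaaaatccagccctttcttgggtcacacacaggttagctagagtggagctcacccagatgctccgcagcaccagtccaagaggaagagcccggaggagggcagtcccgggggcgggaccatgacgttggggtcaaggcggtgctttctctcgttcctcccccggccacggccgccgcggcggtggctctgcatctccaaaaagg
Pgam1: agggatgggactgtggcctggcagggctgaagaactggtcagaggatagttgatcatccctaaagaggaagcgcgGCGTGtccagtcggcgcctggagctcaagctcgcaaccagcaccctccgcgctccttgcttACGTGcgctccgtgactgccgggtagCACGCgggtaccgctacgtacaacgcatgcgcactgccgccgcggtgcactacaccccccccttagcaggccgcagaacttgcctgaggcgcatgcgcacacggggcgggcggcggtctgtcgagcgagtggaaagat
Pgk1: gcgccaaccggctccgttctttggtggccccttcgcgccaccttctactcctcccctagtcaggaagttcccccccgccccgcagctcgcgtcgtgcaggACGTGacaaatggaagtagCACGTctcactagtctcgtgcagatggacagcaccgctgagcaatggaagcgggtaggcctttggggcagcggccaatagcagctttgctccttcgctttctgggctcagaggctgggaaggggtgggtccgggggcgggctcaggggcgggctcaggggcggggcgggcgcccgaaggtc

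Among called genes above 0 in both libraries, the largest difference belonged to a p53 target. Cdkn1a (chr17:29227931-29237667), the cell cycle inhibitor p21, had 26.2 FPKM at day 3 (15.5 to 38.1) and 0.186 FPKM in naive cells (0 to 0.929), a difference of 9.32. Of 14 genes of the BCL2 family and p53 response compared, 8 were at least 2-fold higher and called, and 1, Bid, was listed at 0 at day 3. The others called were Phlda3, Sesn2, Ccng1, Bcl2, Bax, Mdm2 and Trp53inp1, with differences of 7.87, 5.69, 3.05, 2.87, 2.11, 1.86 and 1.23. The called genes thus held Bcl2, which protects from apoptosis, together with Bax, which carries it out. As deposited, Cdkn1a, Phlda3 and Sesn2 were the 3 of 14 with a higher FPKM at day 3. These genes met the FPKM minimum only at day 3, so they could only come out higher.

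Several secreted and receptor genes stood well above 0 at day 3 and at or near 0 in the naive library. Tgm2, a transglutaminase that cross-links proteins, had 17.3 FPKM at day 3 (11.3 to 23.1) and 0.191 FPKM in naive cells (0 to 0.453). Lif, a cytokine of the IL-6 family, had 11.5 FPKM at day 3 and 0.266 FPKM in naive cells. Tnfrsf8 (CD30), a receptor of activated lymphocytes, had 10.3 FPKM at day 3 and 0.230 FPKM in naive cells, and Cyp11a1, which starts steroid synthesis from cholesterol, had 6.46 FPKM at day 3 and 0.202 FPKM in naive cells. Serpinf1 had 10.9 FPKM and Stc2 had 7.66 FPKM at day 3, both secreted and both listed at 0 in naive cells. Of 13 secreted and granule genes compared, 5 stood at least 2-fold above and 5 at least 2-fold below naive cells, and Penk, the enkephalin precursor, completed the 4 called with 11.6 FPKM at day 3 and 2.35 FPKM in naive cells. As deposited, 4 of the 13 had a higher FPKM at day 3. Over all entries 14.9% stood at least 2-fold higher and 42.8% at least 2-fold lower. Tgm2, Lif, Tnfrsf8, Cyp11a1, Serpinf1, Stc2 and Penk met the FPKM minimum only at day 3, so they could only come out higher. Prf1 and Ctsw, of the cytotoxic granule, were listed at 0 at day 3 and had 8.92 and 50.9 FPKM in naive cells, and at 3 fragments Ctsw would stand at a difference of 0.87, so no direction is read for it.

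Lipid synthesis stood higher in part. Of 17 cholesterol and fatty acid genes compared, 10 were at least 2-fold higher, 3 were at least 2-fold lower with a listed 0 at day 3 (Mvk, Nsdhl and Dhcr7) and 7 were called higher, with a median of 1.54, and 3 of the 17 had a higher FPKM at day 3 as deposited. Scd2, a fatty acid desaturase, had 57.1 FPKM at day 3 (47.6 to 66.6) and 19.7 FPKM in naive cells (17.4 to 22.0). Hmgcs1, an enzyme of the mevalonate pathway, differed by 3.35, and Fasn, fatty acid synthase, by 1.65.

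Genes of mitosis stood higher and those of DNA replication only slightly. Of 13 mitosis genes compared 12 were at least 2-fold higher and 4 were called, Cdc20, Top2a, Ncapd2 and Mki67, with differences of 3.91, 3.07, 3.02 and 2.85, and as deposited 2 of the 13 had a higher FPKM at day 3. Cdc20 met the FPKM minimum only at day 3, so it could only come out higher. Top2a, topoisomerase II, had 9.13 FPKM at day 3 and 10.5 FPKM in naive cells. Smc4, a condensin subunit, was called lower, with 3.21 FPKM at day 3 and 111 FPKM in naive cells. Of 17 replication genes 6 were at least 2-fold higher, 4 were lower with a listed 0 at day 3 and none was called by either rule, with a median of 0.52, and none had a higher FPKM at day 3 as deposited. Of 17 genes of one-carbon and nucleotide synthesis 5 were higher and 4 were lower, none had a higher FPKM at day 3 as deposited, and Psat1, an enzyme of serine synthesis, was called with 10.4 FPKM at day 3 and 10.5 FPKM in naive cells. The 48 ribosomal proteins summed to a scaled level of 92930 at day 3 and 95702 in naive cells, with a median difference of -0.43. Of the 48, 2 were at least 2-fold higher and 13 at least 2-fold lower, 7 of these listed at 0 at day 3. Over all entries 14.9% were higher and 42.8% were lower.

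**Figure D3:**
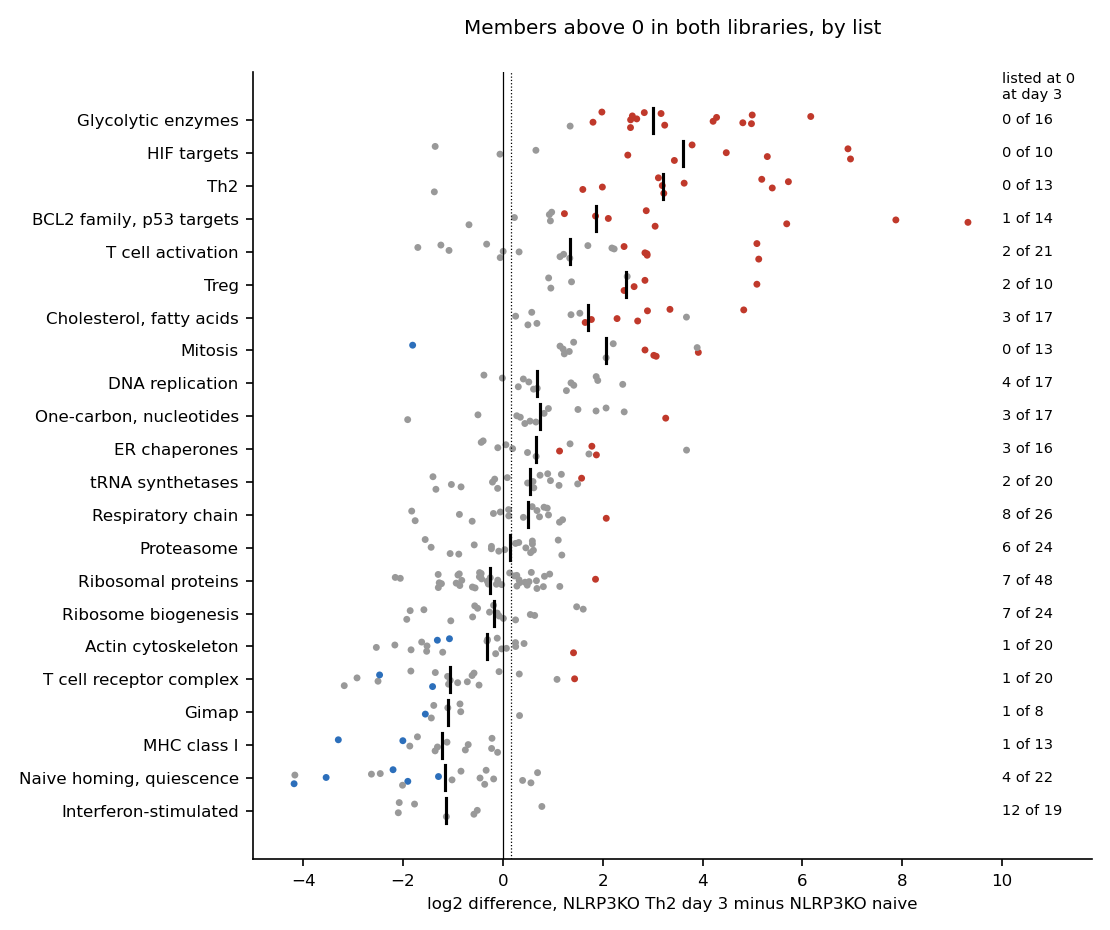
Difference between the NLRP3KO Th2 day 3 and NLRP3KO naive libraries (x axis, log2 after scaling) for the members of 22 gene lists that were above 0 in both. Each point is 1 gene, red where called higher and blue where called lower, black bars mark the median of the points, the dotted line marks the median of 0.15 over all such entries, and the numbers at the right count members listed at 0 at day 3. Without scaling every point would move left by about 3.30.

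Genes that keep naive T cells quiescent and recirculating were lower. Of 22 such genes, all compared, 14 were at least 2-fold lower, 4 of them listed at 0 at day 3, none was at least 2-fold higher and 5 were called lower, with a median of -1.96. Above 0 in both libraries, 10 of 18 were lower, against 723 of all 4511 such entries. At this depth an entry of low naive FPKM tends to be above 0 at day 3 when it is not lower. The 723 are therefore no like base for genes high in naive cells. Entries of at least 50 FPKM in naive cells, in 3 bins by inferred transcript length, had medians of -0.71, -0.66 and -1.01. S1pr1 (chr3:115413351-115417973), the receptor that lets T cells leave lymph nodes, had 0.730 FPKM at day 3 (0 to 2.08) and 134.5 FPKM in naive cells (121 to 142). Its value at day 3 rested on an estimated 0.516 fragments, so the difference of -4.18 is poorly known and the counting limit puts it at -0.63 or lower. Klf2, the factor that drives S1pr1, had 1.26 FPKM at day 3 and 147 FPKM in naive cells, with a limit of -0.01. Foxp1 and Btg1, both tied to quiescence, were called as well. Tcf7 had 2.02 FPKM at day 3 and 363 FPKM in naive cells, a value above its own upper bound of 358 FPKM, and was for that reason not called. Satb1 and Igfbp4 differed by 0.69 and 0.56.

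A few genes of the T cell receptor machinery and of antigen presentation were called lower. Of 20 genes of the receptor complex and its signalling, 11 were at least 2-fold lower and 2 were higher, against 42.8% and 14.9% of all entries. Their median was -1.07 against -0.56 over all entries. The 42.8% includes entries listed at 0 at day 3. Above 0 in both libraries, 10 of 19 of these genes were lower, against 723 of all 4511 such entries. That base is not matched for naive level. Entries of at least 50 FPKM in naive cells had medians of -0.71, -0.66 and -1.01 in 3 bins by inferred transcript length. Lck, the kinase that starts receptor signalling, had 10.9 FPKM at day 3 and 286 FPKM in naive cells, with a limit of -0.20, and Cd247, the zeta chain, had 3.29 FPKM at day 3 and 181 FPKM in naive cells, with a limit of -0.31. Cd28, the costimulatory receptor, was called higher, with 9.58 FPKM at day 3 and 34.8 FPKM in naive cells, a difference of 1.44 that is turned round without scaling. Of 13 genes of MHC class I, 8 were at least 2-fold lower (7 of the 12 above 0 in both libraries), against the same 42.8%. None was higher, and the median was -1.31. H2-D1, a class I heavy chain, had 18.1 FPKM at day 3 (9.26 to 26.4) and 718 FPKM in naive cells (692 to 752), with a limit of -1.01, and Nlrc5, which activates class I genes, had 0.309 FPKM at day 3 and 31.9 FPKM in naive cells. B2m, the light chain, had 79.7 FPKM at day 3 and 2576 FPKM in naive cells, and as the naive value lay above its own bounds it was not called.

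Interferon-stimulated genes were listed at 0 more than measured. Of 19 compared, 16 were at least 2-fold lower, against 42.8% of all entries, and 12 were listed at 0 at day 3. None was higher and 1 was called, and with zeros set at 3 fragments the median would be 0.41. Of 8 Gimap genes, GTPases of lymphocyte survival, 5 were lower (4 of the 7 above 0 in both libraries), against the same 42.8%. Gimap4 was called with 10.1 FPKM at day 3 and 293 FPKM in naive cells. Of 20 genes of the actin cytoskeleton 10 were at least 2-fold lower and 1 was higher, against 42.8% and 14.9% of all entries. Above 0 in both libraries, 9 of 19 actin genes were lower, against 723 of all 4511 such entries. That base is not matched for naive level here either. Flna and Myh9, filamin and non-muscle myosin, were called lower with 3.59 and 7.86 FPKM at day 3 against 88.3 and 163 FPKM in naive cells, and Vim, vimentin, was called higher with 51.1 FPKM at day 3 and 189 FPKM in naive cells. Actb differed by -0.11. Among genes on no list, Dgka, a kinase that dampens diacylglycerol signals, had 3.94 FPKM at day 3 and 384 FPKM in naive cells with a limit of -1.91, and Shisa5 had 16.5 FPKM and 1131 FPKM, day 3 before naive, with a limit of -1.67.

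Values of the lower genes carried the depth of the day 3 library. Of the 73, 43 rested on fewer than 3 estimated fragments at day 3, 8 of these listed at 0, and their counting limits reached up to -0.01 on the log2 scale. With the 100 highest genes left out of the scaling sum, 60 of the 73 were still called, and Klf2 was not among them. The 241 higher genes rested on a median of 9.87 fragments at day 3. Of 2121 entries listed at 0 at day 3 for which 3 fragments could be converted, the limit lay above the naive value in 2026. Cd3d (225 FPKM in naive cells) and Uqcrh (199 FPKM) were listed at 0 at day 3 although every T cell uses them, so a listed 0 is not read as absence. Genes of at least 50 FPKM in naive cells were split into 3 bins of 228 by transcript length, as inferred from the naive bounds. Those listed at 0 at day 3 made up 22.8% of the shortest bin, 12.3% of the middle bin and 4.39% of the longest bin.

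Markers of other cells were mostly listed at 0 at day 3. Summed scaled levels were 0 at day 3 and 183 in naive cells for 11 CD8 and natural killer genes, 30.3 and 587 for 20 myeloid genes, and 0 and 1838 for 10 erythroid and platelet genes, day 3 before naive. The compared members were listed at 0 at day 3 throughout these 3 lists, among them Cd8b1, Klrd1, Lyz2, S100a9 and Hba-a1, the last with 238 FPKM in naive cells. With these zeros set at 3 fragments the medians of the 3 lists would be 2.51, 3.09 and 1.88, so a lower level at day 3 was not detectable at this depth. The sums of 15 B cell genes were 857 at day 3 and 817 in naive cells, with Cd79a and Cd79b listed at 0 at day 3, Cd74 at 9.76 FPKM at day 3 and 68.4 FPKM in naive cells, and H2-Ab1 called higher with 8.03 FPKM at day 3 and 12.7 FPKM in naive cells. The 9 genes of stroma and vessels summed to 50.9 at day 3 and 210.1 in naive cells, mostly Pecam1. The part of such cells in the lower values of interferon and MHC genes was not tested.

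The WT libraries give the same contrast from other cells, with no library shared. Over the same 6645 entries WT day 3 was at least 2-fold higher than WT naive in 22.3% and at least 2-fold lower in 35.8%. Over the 5625 entries that met the FPKM minimum in WT, 19.7% were higher and 35.6% lower, and the calls numbered 265 higher (4.71%) and 59 lower (1.05%). Of the 241 genes called higher in NLRP3KO, 176 were at least 2-fold higher in WT too and 12 were at least 2-fold lower, and 89 were called in both, 36.9% of the NLRP3KO list and 33.6% of the WT list. Of the 73 called lower, 54 were at least 2-fold lower in WT, none was at least 2-fold higher, and 38 were called in both, 52.1% of the NLRP3KO list and 64.4% of the WT list. The medians of the 241 were 2.52 in NLRP3KO, which chose them, and 1.82 in WT, and those of the 73 were -2.41 in NLRP3KO and -1.86 in WT.

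**Figure D4:**
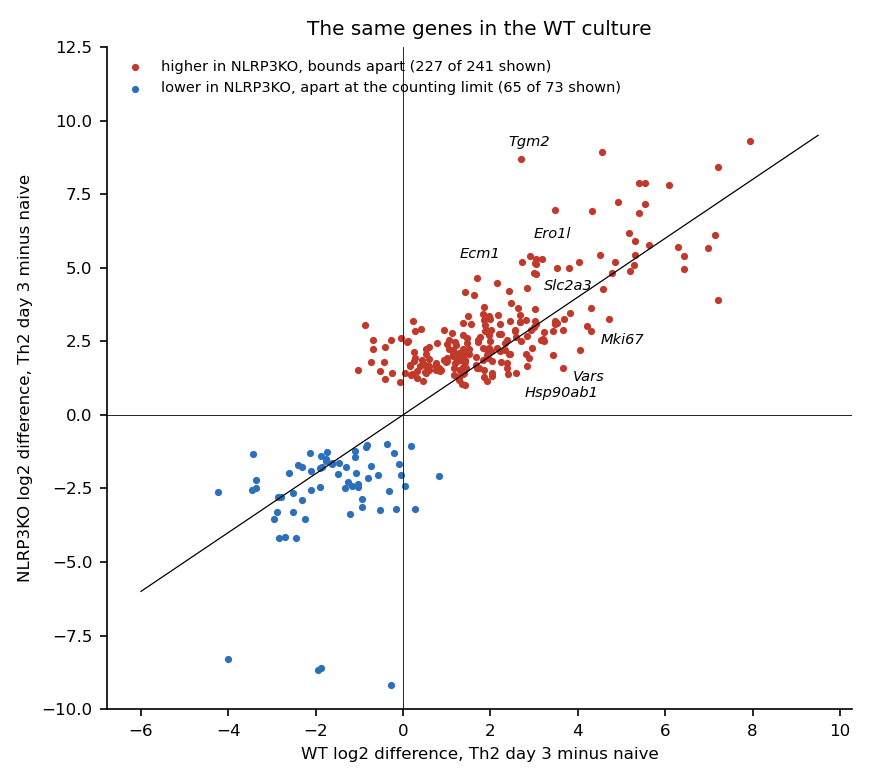
Culture difference in NLRP3KO (y axis) against that in WT (x axis), both log2 of Th2 day 3 minus naive after scaling, for the 227 of 241 genes called higher (red) and the 65 of 73 called lower (blue) that were above 0 at WT day 3. The line marks equal differences, the points near -8 and below on the y axis are genes listed at 0 at NLRP3KO day 3, and named genes are those whose intervals did not overlap between genotypes.

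Whether the culture difference itself differed between genotypes could not be tested with 1 library a group. As a description, the interval of the difference in NLRP3KO lay wholly above that in WT for 5 of 6375 entries (0.0784%), and wholly below it for 13 (0.204%). The 5 were Tgm2, Ero1l, Ecm1, Slc2a3 and Rnf181. Tgm2 differed by 8.70 in NLRP3KO and 2.69 in WT, Ero1l by 5.30 and 3.18, Ecm1 by 5.18 and 2.72, and Slc2a3 by 4.81 and 2.99, in the same order, whereas Rnf181 was listed at 0 at WT day 3. Among the 13 were Mki67 with 2.85 in NLRP3KO and 4.29 in WT, Hsp90ab1 with 1.40 and 2.41, Vars (valine tRNA synthetase) with 1.58 and 3.65, Shmt2 (one-carbon supply) with 0.66 and 4.26 and Slc7a5 (amino acid uptake) with -0.41 and 4.06. Shmt2 and Slc7a5 rested on an estimated 1.95 and 0.991 fragments at NLRP3KO day 3. The others of the 13 were Ncl, Hspa9, Lmnb1, Rcc2, Itgal, Hnrnpu, Sf1 and Gcn1l1. Of these, Lmnb1, Gcn1l1, Hspa9 and Rcc2 rested on an estimated 0.875, 0.953, 1.91 and 2.92 fragments at NLRP3KO day 3.

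Counts over the lists were set side by side for the genotypes, a difference that was not tested either. The members were those that met the FPKM minimum in the NLRP3KO libraries, and the same members were read in WT. A member that met it through a high NLRP3KO naive value is set toward a lower NLRP3KO difference by that choice. At least 2-fold higher were 6 of 17 replication genes in NLRP3KO and 15 of 17 in WT, 5 of 17 one-carbon and nucleotide genes and 12 of 17, 4 of 20 tRNA synthetases and 17 of 20, and 1 of 7 amino acid transporters and 5 of 7, NLRP3KO before WT. Over all 6645 entries the shares were 14.9% in NLRP3KO and 22.3% in WT. The medians were 0.52 and 2.66 for replication, 0.54 and 1.65 for one-carbon and nucleotide genes, 0.29 and 1.57 for the synthetases, and -0.33 and 1.67 for the transporters, again NLRP3KO first. These medians keep zeros as listed. With zeros at 3 fragments those of NLRP3KO would be 1.27 for replication, 0.83 for one-carbon and nucleotide genes and 0.61 for the synthetases. WT medians with zeros at 3 fragments are not given, so these have no like value in WT. No compared transporter was listed at 0 at NLRP3KO day 3. Mitosis genes were at least 2-fold higher for 12 of 13 in NLRP3KO and 11 of 13 in WT, with medians of 2.07 and 2.96. Glycolysis had 16 of 16 at least 2-fold higher in both genotypes and medians of 3.00 in NLRP3KO and 3.07 in WT. HIF targets were at least 2-fold higher for 7 of 10 in NLRP3KO and 8 of 10 in WT, with medians of 3.61 and 2.07.

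The NLRP3KO day 6 library shares the naive library, so single values are given beside those of day 3 only for a few genes. Of the 241 genes called higher at day 3, 151 were at least 2-fold above naive at day 6 and 57 at least 2-fold below. At day 6, 59 of the 241 were listed at 0, among them Phlda3, Slc16a3, Stc2 and Cyp11a1, and such a 0 is not read as absence. Ecm1 had 58.8 FPKM at day 3 and 57.3 FPKM at day 6, Scd2 had 57.1 and 50.9 FPKM, Irf4 had 20.4 and 15.3 FPKM, Il24 had 19.5 and 15.9 FPKM, and Gata3 had 14.4 and 5.03 FPKM. Il2ra had 43.2 and 21.6 FPKM, Egln3 had 19.9 and 6.10 FPKM, and Cdkn1a had 26.2 and 13.1 FPKM, day 3 before day 6 throughout. S1pr1, Dgka and Lck were listed at 0 at day 6, where 2711 entries in all were above 0.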

How the data were processed

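For each library the authors deposited a table of FPKM by gene model, with confidence bounds and a status, as its header shows. Per the submitters' processing notes, the tools were TopHat and Cufflinks and the build was mm9. Neither versions nor the gene models used are given in the sources used here. With FPKM in place of counts, no count model was fitted. Entries of the tables were matched on identifier and position, and coordinates other than promoters are mm9. Each library was scaled so that entries of like class summed to 1000000. Entries with an FPKM of at least 5 in 1 or both libraries were compared on log2 (scaled FPKM + 1), which understates differences of low genes. A call needed a 2-fold difference, each value inside its own bounds, and bounds apart. For lower calls the upper side at day 3 was its counting limit, a rule added after seeing the data. Ratios of bounds that were whole numbers up to 80 (relative tolerance 2e-05) gave the FPKM worth of 1 fragment. By the most frequent ratio, day 3 fragments weighed 6.55 times those of naive cells. That ratio was found in 113 of the 310 genes that gave one, and the others gave other ratios. These depths are inferences, and limits cover counting error only, since PCR (12 cycles) was used without molecular identifiers. Scripts were tested on simulated data.

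Genes named are fixed Th2 and lineage genes, the 15 highest and 15 lowest differences with bounds apart, up to 8 genes listed at 0 in 1 library, and up to 4 called members of each list. Other list members named were chosen after their values were seen. The members and the 36 lists were chosen with earlier results of these data known. Values of globins, ribosomal proteins and MHC class I genes are uncertain, as near-identical copies can split their reads, and strand was not stated. Alternatives covered scaling, pseudocount (0.5 and 5), the FPKM minimum, gene class and zeros. Python 3.11.15, numpy 2.4.6, pandas 2.3.3 and scipy 1.17.1 were used. The day 6 libraries were used for the values printed and to choose the genes of the median ratio over all 6 libraries. A few genes are not reported here.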

Additional observations from a re-analysis of the deposited data

How the results depend on the processing

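Against 992 higher and 2847 lower entries, the counts were 53 and 6395 as deposited, 2069 and 4764 with an FPKM minimum of 1, and 2440 and 6160 with no filter. With zeros at day 3 set at 3 fragments, a limit and not a value, the counts were 2647 and 733. Higher entries were 650 with the median ratio over all 6 libraries and 416 with that over both libraries, and lower ones were 723 over entries above 0 in both. Higher calls with bounds apart, 241 in the report, were 38 as deposited and 133 with the median ratio over both libraries. Lower ones by deposited bounds, 2242, were 5934 as deposited, 3966 with a minimum of 1, 4480 with no filter, 253 above 0 in both and 73 at the counting limit. The other alternatives kept these 4 counts within 1.5 times. A rescaling moves a list together with the median over all entries, so it cannot test on which side of that median a list lies. The side changed with no filter for the Th17 list (-0.50) and the stroma list (0.10). It did above 0 in both for Th1 (0.000148), follicular helper (1.47) and B cell genes (0.34), and with zeros at 3 fragments for Th1 (1.64), follicular helper (0.87), B cell (1.39), CD8 and natural killer (1.89), myeloid (2.47) and erythroid genes (1.25). Listed at 0 at day 3 were 4 of 7 compared Th1 genes, 4 of 6 follicular helper genes, 3 of 6 B cell genes and all of the last 3 lists.

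Leaving out a replicate was not possible with 1 library a group. No paired analysis was possible because each group holds 1 library. The 19448 fragments on genes at day 3 set the limit for lower calls: 3 fragments on a gene of median length equal 30.6 FPKM in naive cells.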

Other observations

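Among the 241 genes called higher, 38 kept that call as deposited, and those on no list included Cdk6, Bhlhe40, Nrn1, Rbpj and Tanc2, named here after their values were seen. Cdk6, a kinase of the G1 phase, had 8.14 FPKM at day 3 and 1.26 FPKM in naive cells. Bhlhe40, a transcription factor of activated T cells, had 10.6 FPKM at day 3 and 2.19 FPKM in naive cells. Rbpj, the factor through which Notch acts, had 16.4 FPKM at day 3 and 4.22 FPKM in naive cells, and Nrn1 had 18.9 FPKM at day 3 and 4.09 FPKM in naive cells. The entry of like class with the highest FPKM at day 3 was Lars2, with 1489 FPKM at day 3 and 999 FPKM in naive cells. Leaving Lars2 out of the sum moved the median difference by 0.091. Of 14 inflammasome genes 8 were compared, none was called, and Casp1 and Casp4 were listed at 0 at day 3 with 6.03 and 5.90 FPKM in naive cells. Pycard, the adaptor, had 4.23 FPKM at day 3 and 21.7 FPKM in naive cells.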
